A study of Saccharomyces cerevisiae S288C and Saccharomyces paradoxus NRRL Y-17217 and Saccharomyces mikatae IFO 1815 with 8 samples.

Results

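The genes described here are those whose RNA level set S. cerevisiae and S. paradoxus apart, as a pair, from S. mikatae and S. bayanus, in cultures of these 4 yeast species grown under the same condition. They were chosen by their measured values. A gene was kept when, on day 1 and again on day 2, both species of one pair lay above both species of the other, in CPM, the reads of a gene relative to those of all core genes in the library, scaled by the trimmed mean of M-values (TMM). Of 2739 core genes, 496 met this rule: 224 were higher in the S. cerevisiae and S. paradoxus pair (8.18% of the core genes) and 272 were lower (9.93%). With counts scaled by the total of the core genes in place of TMM, which shifted the median difference of all core genes by -0.32 on the log2 scale, 110 were higher and 446 were lower. The genes of the TMM scaling are called separated genes below. Since the difference between the pairs chose them, it is given as a description and carries no test.

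RNA was taken from 8 cultures, 2 per species, and sequenced as short SOLiD reads after removal of ribosomal RNA. The cultures were the diploid of FY4 and FY5 in the S288c background for S. cerevisiae, Y-17217 for S. paradoxus, IFO1815 for S. mikatae and MCYC623 for S. bayanus. All 4 strains were diploid prototrophs, and no treatment is named. The labels name a complete medium, whereas the Methods name synthetic medium with glucose and no amino acids. Replicate 1 and replicate 2 of every species were prepared on different days, called day 1 and day 2 here. Each species was represented by 1 strain, so a difference between species cannot be told apart from a difference between strains. S. cerevisiae and S. paradoxus are each other's closest relatives among these species, whereas S. mikatae and S. bayanus are not a branch of their own, and S. bayanus is the most distant of the species. The 4 libraries of a pair come from different species and are not replicates of each other.

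Core genes were listed once in the annotation of all 4 species, had a length of 0.9 to 1.1 times that in S. cerevisiae and took at least 90% of their aligned reads at a unique position. They held 1840377 reads in the shallowest library, S. bayanus on day 1, and 5588566 in the deepest, S. cerevisiae on day 2, and 8 to 19 of them had no read in a given library. Across genes, the log2 values of both cultures of a species correlated at 0.929 to 0.956. Levels are CPM within a library and are compared between species for the same gene. Differences between pairs are log2 differences, with 0.5 added to each CPM, between the mean of S. cerevisiae and S. paradoxus and the mean of S. mikatae and S. bayanus, so that a negative value is lower in S. cerevisiae and S. paradoxus. The median over all core genes was -0.02. The gap of a separated gene is the log2 ratio of the lower species of the higher pair to the higher species of the lower pair, on the day where that ratio was smaller.

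Budding yeasts on glucose ferment sugar to ethanol and keep much of their respiratory machinery repressed. Respiration takes place in mitochondria, whose inner membrane carries the electron transport chain and the ATP synthase and whose own ribosomes translate the few proteins encoded by mitochondrial DNA. Fatty acids are degraded by beta-oxidation in the peroxisome, and in S. cerevisiae the genes of that pathway are induced by oleate through the factors Oaf1 and Pip2, which bind a pair of CGG triplets facing each other, the oleate response element. The Hap complex, which binds CCAAT, activates many respiratory genes in S. cerevisiae.

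The upstream regions of 4 genes are shown first. The genes behind them, 3 of the peroxisome and a gene induced by oleate, were among the lower genes with the widest gaps. They are not the widest by gap alone, since MAM33, COX7, ADE8, MOH1 and DAK2 had wider gaps than FOX2. Of these, only the window of COX7 is shown, further below. Each run is the S. cerevisiae sequence of RefSeq build R64, 300 bases that end 51 bases before the start codon, 5′ to 3′ on the strand of the gene. Capitals mark every CGG followed by CCG with 15 to 18 bases between them, a pattern that reads the same on both strands. The windows lie at chrIX:41495-41794 on the minus strand for POT1, chrX:21623-21922 on the plus strand for YJL218W, chrIV:316439-316738 on the minus strand for MDH3 and chrXI:457105-457404 on the minus strand for FOX2.
POT1: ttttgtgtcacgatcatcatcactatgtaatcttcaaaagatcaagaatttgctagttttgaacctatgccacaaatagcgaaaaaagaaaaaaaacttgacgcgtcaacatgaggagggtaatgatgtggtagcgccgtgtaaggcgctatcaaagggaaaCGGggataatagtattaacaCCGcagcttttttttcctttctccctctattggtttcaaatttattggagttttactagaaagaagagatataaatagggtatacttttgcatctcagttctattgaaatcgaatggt
YJL218W: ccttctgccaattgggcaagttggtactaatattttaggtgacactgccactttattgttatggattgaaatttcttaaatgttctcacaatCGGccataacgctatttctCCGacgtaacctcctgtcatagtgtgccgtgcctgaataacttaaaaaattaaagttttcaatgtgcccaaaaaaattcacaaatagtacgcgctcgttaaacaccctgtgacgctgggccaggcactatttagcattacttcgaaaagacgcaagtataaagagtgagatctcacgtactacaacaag
MDH3: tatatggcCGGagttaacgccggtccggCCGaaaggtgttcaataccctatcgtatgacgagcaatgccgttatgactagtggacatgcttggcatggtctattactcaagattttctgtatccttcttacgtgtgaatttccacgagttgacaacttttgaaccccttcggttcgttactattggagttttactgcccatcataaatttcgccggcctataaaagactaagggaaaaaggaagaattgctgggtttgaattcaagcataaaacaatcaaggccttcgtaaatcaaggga
FOX2: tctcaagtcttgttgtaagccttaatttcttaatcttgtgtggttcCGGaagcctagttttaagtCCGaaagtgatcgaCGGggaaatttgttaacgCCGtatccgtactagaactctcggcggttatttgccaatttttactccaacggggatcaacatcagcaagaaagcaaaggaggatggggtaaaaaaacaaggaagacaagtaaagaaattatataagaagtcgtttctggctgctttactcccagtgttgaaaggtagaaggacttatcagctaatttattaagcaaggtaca
The first CGG lay 188 bases upstream of the start codon in POT1, 258 in YJL218W and 342 in MDH3, and FOX2 held the pattern 2 times, from 304 and from 271 bases upstream. The pattern was searched after these genes had been seen to be separated. It was found in 5.68% of all 6020 protein-coding genes' windows of this length, in 5.27% of those of the core genes, in 6.99% of those of the 272 lower genes and in 7.14% of those of the 224 higher genes. The windows of LIH1, RGL1 and STE3, among the higher genes with the widest gaps, did not hold the pattern and are not shown. A match is a run of letters and says nothing of binding. Of the 16 core genes on the list of peroxisomal beta-oxidation, 8 held it, of which 3 were separated and 5, among them POX1, the acyl-CoA oxidase, were not. The upstream sequences of the other 3 species were not analysed here.

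POT1, which encodes the peroxisomal 3-ketoacyl-CoA thiolase that ends each round of beta-oxidation, had the widest gap of all 496 separated genes. Its level was 0.511 and 1.12 CPM for S. cerevisiae on days 1 and 2, 1.95 and 2.80 for S. paradoxus, 89.9 and 72.0 for S. mikatae and 83.9 and 54.3 for S. bayanus. The 4 lower libraries held 1, 6, 5 and 9 reads of this gene and the 4 higher ones 345, 298, 215 and 154. The pairs lay far apart on both days, with a gap of 4.05 and a difference between pairs of -5.28 on the log2 scale. YJL218W, a putative acetyltransferase induced by oleate in S. cerevisiae, had 0 and 0.562 CPM for S. cerevisiae, 1.17 and 1.25 for S. paradoxus, 68.5 and 56.1 for S. mikatae and 12.9 and 13.1 for S. bayanus. It was at or near the floor in the first pair, and within the second pair it was lower in S. bayanus than in S. mikatae (log2 difference -2.26, SE 0.51, adjusted p = 0.006, edgeR).

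MDH3, the peroxisomal malate dehydrogenase that reoxidises NADH formed by beta-oxidation, was measured at 218 and 266 CPM for S. cerevisiae, 191 and 258 for S. paradoxus, 794 and 938 for S. mikatae and 1282 and 1567 for S. bayanus. FOX2, the multifunctional enzyme of the same cycle, had 25.0 and 70.0 CPM for S. cerevisiae, 23.8 and 21.8 for S. paradoxus, 92.8 and 194 for S. mikatae and 722 and 301 for S. bayanus. Both genes were lower in every library of the first pair than in any library of the second, and FOX2 was also higher in S. bayanus than in S. mikatae (log2 difference 1.95, adjusted p = 0.018, edgeR). PEX15, a peroxisomal membrane protein needed for import, was the last of the 4 separated genes on this list, at 32.2 to 62.0 CPM in the first pair and 79.6 to 109 in the second. None of the 16 core genes on the list was separated in the other direction, and the list median was -0.33, or -0.50 without S. cerevisiae on day 2. POX1, at 7.15 and 28.1 CPM for S. cerevisiae and 120 and 90.3 for S. paradoxus, was not separated, since S. cerevisiae lay below and S. paradoxus above both species of the second pair on day 2 and on day 1 alike, and the difference between pairs was -0.27. CAT2, the carnitine acetyltransferase that serves both organelles, was not separated either: S. mikatae held 30.0 CPM on day 1 and 451 on day 2. OAF1, the gene of a factor named above, was itself separated and higher, with differences of 0.726 on day 1 and 0.681 on day 2. Any part of it in the levels of these genes was not tested.

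**Figure D1:**
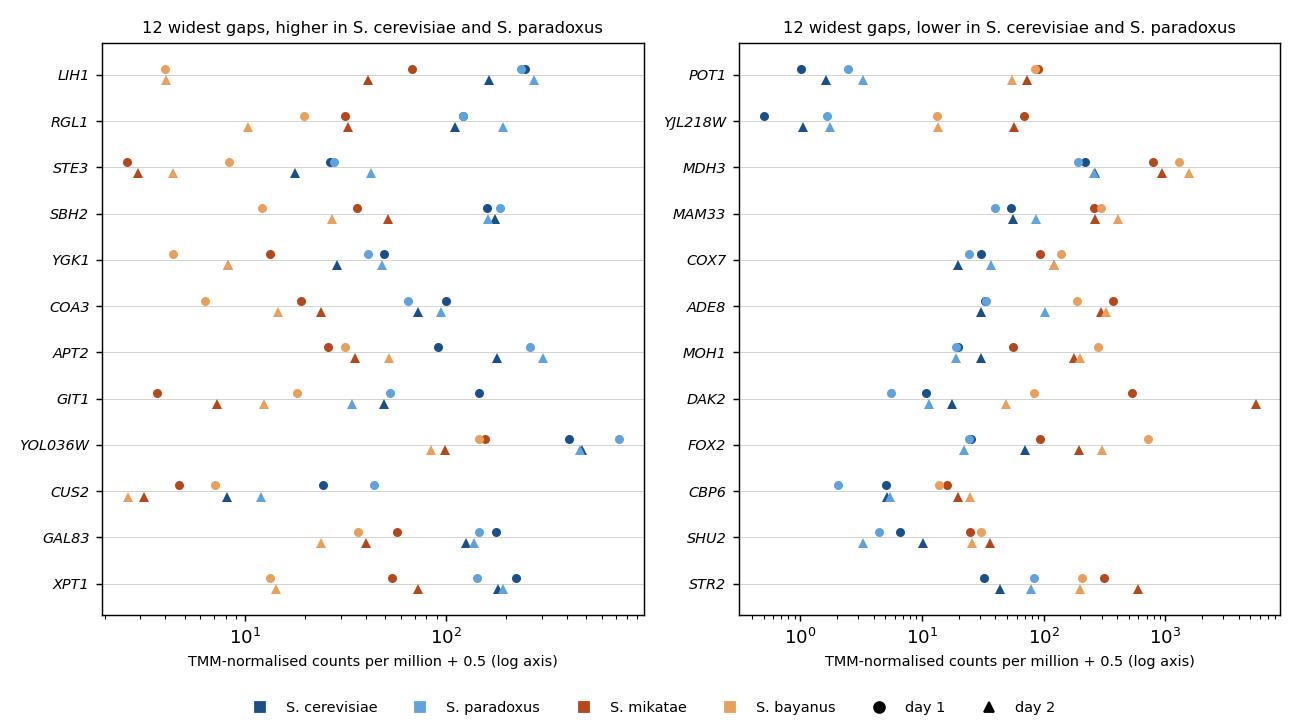
TMM-normalised CPM, with 0.5 added and on a log axis, of the 12 separated genes with the widest gap in each direction. Each point is 1 library, colours mark the species, circles are day 1 and triangles day 2. POT1 shows the widest gap, 4.05 on the log2 scale, and DAK2 the widest spread inside a pair, from 48.3 to 5544 CPM.

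The other lower genes with wide gaps belonged to several processes. MAM33, a mitochondrial matrix protein of the p32 family, had 53.1 and 55.4 CPM for S. cerevisiae, 39.5 and 86.2 for S. paradoxus, 259 and 262 for S. mikatae and 293 and 408 for S. bayanus. ADE8, an enzyme of purine synthesis, had 32.7 and 30.3 CPM for S. cerevisiae, 32.8 and 102 for S. paradoxus, 372 and 295 for S. mikatae and 187 and 327 for S. bayanus. The cultures of S. cerevisiae and S. mikatae repeated closely for both genes, and S. paradoxus on day 2 was the highest library of the lower pair. DAK2, which encodes a dihydroxyacetone kinase, had 5.08 to 17 CPM in the first pair, 532 and 5544 for S. mikatae and 83.5 and 48.3 for S. bayanus. Its difference between the pairs was -4.99, and inside the second pair S. bayanus was lower than S. mikatae (log2 difference -4.89, SE 0.81, adjusted p = 0.0012, edgeR). MOH1, a gene of stationary phase without a known function, ranged from 18.4 to 30.0 CPM in the first pair and from 56.0 to 281 in the second. STR2, the cystathionine gamma-synthase, ranged from 31.7 to 82.9 in the first pair and reached 591 in the second, and SHU2, a subunit of a complex that acts in recombination repair, from 2.80 to 9.74 against 24.2 to 35.8.

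Of the 496 separated genes, 98 were on at least 1 of 21 lists of genes of known pathways and 398 were on none. Over the 8 lists of mitochondrial functions together, 42 of 186 core genes (22.6%) were separated and lower in S. cerevisiae and S. paradoxus, beside 9.93% of all core genes, and 5 (2.69%) were separated and higher, beside 8.18%. The median difference of these 186 genes was -0.46, and 129 of them lay below 0. The list of iron-sulfur cluster assembly among them also holds genes that act in the cytosol, and without these, a choice made after the data were seen, 39 of 181 (21.5%) were separated and lower. These counts describe the lists and were not tested, and the difference was not shared by all mitochondrial functions.

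In the respiratory chain and ATP synthase, 7 of 27 core genes (25.9%) were separated, all of them lower, with a list median of -0.71. COX7, a small subunit of cytochrome c oxidase, had 30.1 and 19.1 CPM for S. cerevisiae, 23.8 and 36.1 for S. paradoxus, 92.0 and 121 for S. mikatae and 139 and 120 for S. bayanus. RIP1, the Rieske iron-sulfur protein of the cytochrome bc1 complex, had 211 and 204 CPM for S. cerevisiae, 178 and 237 for S. paradoxus, 469 and 696 for S. mikatae and 639 and 777 for S. bayanus. Species of the same pair overlapped in both genes, and the pairs differed by -2.11 and -1.62 on the log2 scale. COX13, another subunit of the oxidase, ranged from 32.1 to 59.2 CPM in the first pair and from 110 to 291 in the second. ATP4, a subunit of the stator of the ATP synthase, ranged from 186 to 328 against 367 to 785. NDE2, an external NADH dehydrogenase, ranged from 17.9 to 63.3 against 95.1 to 568, and QCR7, of the bc1 complex, from 26.2 to 101 against 90.1 to 451. INH1, the inhibitor of the ATP synthase, had the largest difference of the list, -2.53, at 47.0 and 15.9 CPM for S. cerevisiae, 8.60 and 9.34 for S. paradoxus, 132 and 167 for S. mikatae and 59.3 and 58.2 for S. bayanus. For QCR7 the pairs overlapped when days were set aside, since S. cerevisiae on day 1, at 101 CPM, lay above S. mikatae on day 2, at 90.1. The other 20 core genes of the list were not separated, among them ATP2 (0.31), a catalytic subunit of the ATP synthase, and NDE1 (-0.04), the paralog of NDE2.

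The windows of COX7 and RIP1 are shown because they had the widest gaps of the respiratory chain. They lie at chrXIII:779178-779477 on the minus strand and chrV:106910-107209 on the plus strand of R64, with capitals at every CCAAT, read on either strand.
COX7: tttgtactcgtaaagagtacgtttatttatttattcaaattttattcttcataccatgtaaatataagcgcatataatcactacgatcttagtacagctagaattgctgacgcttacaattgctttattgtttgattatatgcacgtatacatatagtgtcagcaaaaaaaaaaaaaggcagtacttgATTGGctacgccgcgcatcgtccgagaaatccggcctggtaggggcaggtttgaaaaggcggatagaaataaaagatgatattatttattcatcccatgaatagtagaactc
RIP1: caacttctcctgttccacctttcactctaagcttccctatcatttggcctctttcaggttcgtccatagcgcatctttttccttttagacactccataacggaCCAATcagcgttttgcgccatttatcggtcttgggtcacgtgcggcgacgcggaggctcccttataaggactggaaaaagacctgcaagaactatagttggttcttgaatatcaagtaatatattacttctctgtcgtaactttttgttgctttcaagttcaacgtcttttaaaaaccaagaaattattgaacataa
The motif started 162 bases upstream of the start codon in COX7, where it reads ATTGG, and 247 bases upstream in RIP1. CCAAT was found in 47.8% of the windows of the lower genes, 40.6% of those of the higher genes, 43.5% of those of the core genes and 42.9% of all 6020, so that its presence in these windows is common among yeast genes.

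**Figure D2:**
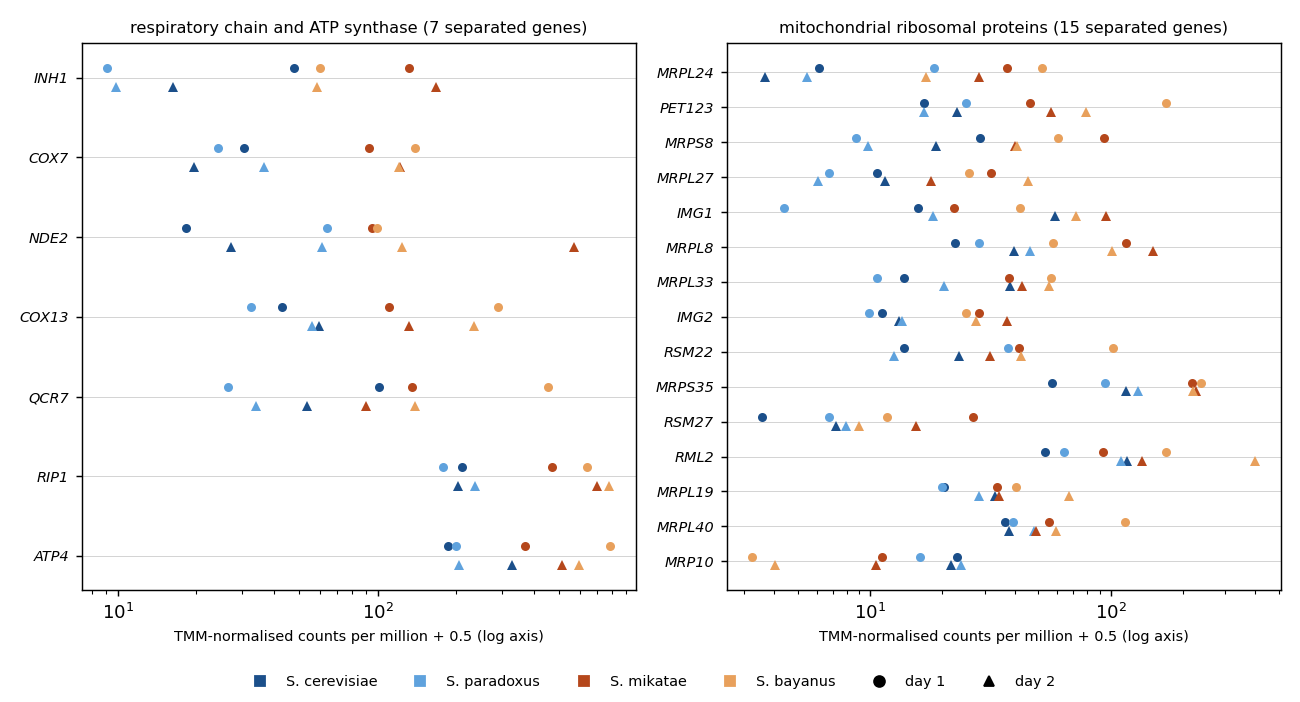
TMM-normalised CPM, with 0.5 added and on a log axis, of the separated genes on the lists of the respiratory chain and of mitochondrial ribosomal proteins, sorted by the difference between pairs. Each point is 1 library, colours mark the species, circles are day 1 and triangles day 2. All genes but MRP10 lie lower in S. cerevisiae and S. paradoxus on each day.

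Mitochondrial ribosomal proteins contributed the largest number of separated genes of any list. Of 46 core genes, 14 were lower (30.4%) and 1 was higher (2.17%), and the list median was -0.69. MRPS8, a protein of the small subunit, had 28.1 and 18.4 CPM for S. cerevisiae, 8.21 and 9.34 for S. paradoxus, 93.3 and 39.6 for S. mikatae and 60.1 and 40.2 for S. bayanus. MRPL8, of the large subunit, had 22.0 and 39.3 CPM for S. cerevisiae, 27.8 and 45.8 for S. paradoxus, 115 and 149 for S. mikatae and 57.4 and 101 for S. bayanus. The pairs did not overlap in any library for either gene. IMG2 ranged from 9.38 to 13.1 CPM in the first pair and from 24.6 to 36.5 in the second, PET123 from 16.2 to 24.6 against 45.6 to 169, and MRPS35 from 56.7 to 130 against 217 to 238. MRPL24 had the largest difference of the list, -2.17, although S. paradoxus on day 1 (18.0 CPM) lay above S. bayanus on day 2 (16.6 CPM). MRP10, a small-subunit protein, ran the other way, at 15.6 to 23.3 CPM in the first pair and 2.73 to 10.7 in the second. The gaps of MRPL19 and MRPL40 were 0.05 and 0.03, so that these genes met the rule only just.

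Some genes that act on the mitochondrial genome and its transcripts, or that assemble the chain, were separated and lower. Of 20 core genes of mitochondrial gene expression, 5 were lower (25.0%, beside 9.93% of all core genes) and 1 higher (5.0%, beside 8.18%). The median was -0.45 and became -0.68 without S. cerevisiae on day 2. MRM2, which methylates mitochondrial ribosomal RNA, ranged from 16.7 to 34.5 CPM in the first pair and from 85.4 to 119 in the second. GTF1, a subunit of the mitochondrial amidotransferase that forms Gln-tRNA, ranged from 6.64 to 16.8 against 31.9 to 64.9, and MSD1, the mitochondrial aspartyl-tRNA synthetase, from 33.7 to 99.9 against 164 to 429. All 3 had no overlap between the pairs. Of 30 core genes for assembly of the chain and synthesis of ubiquinone, 4 were lower (13.3%) and 1 was higher (3.33%). The lower share was near the 9.93% of all core genes, and nothing is read from it. The median was -0.53 and became -0.32 without S. mikatae on day 2. CBP6, which acts in translation of cytochrome b, ranged from 1.56 to 4.98 CPM against 13.3 to 24.3. COQ3, a methyltransferase of ubiquinone synthesis, ranged from 28.1 to 74.4 against 147 to 224, and COX20, an assembly factor of the oxidase, from 7.82 to 24.5 against 34.6 to 95.6. COA3, another assembly factor of the same oxidase, was the exception, with 99.6 and 72.3 CPM for S. cerevisiae, 64.5 and 94.3 for S. paradoxus, 18.5 and 23.4 for S. mikatae and 5.85 and 14.1 for S. bayanus. Its gap of 1.60 was among the widest of the higher genes. CMC1, on the same list, had a difference of -2.72 but was not separated: S. mikatae on day 2, at 6.77 CPM, lay below S. cerevisiae, at 9.55, and S. bayanus held 175 and 163.

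Of the 21 lists, iron-sulfur cluster assembly had the highest share of separated lower genes, 6 of 16 core genes (37.5%), and none higher, with a median of -0.42. MET18, NBP35 and CFD1 are among its genes of the cytosolic pathway, so this share is not one of mitochondrial genes alone. MET18, which inserts clusters into proteins of the cytosol and nucleus, ranged from 169 to 235 CPM in the first pair and from 453 to 560 in the second. ISD11, a partner of the mitochondrial cysteine desulfurase, ranged from 37.8 to 74.1 against 111 to 174. The gaps of these genes were 0.95 and 0.82, while those of NBP35, CFD1, GRX5 and NFU1 were between 0.01 and 0.24. In the TCA cycle, 3 of 11 core genes were lower (27.3%, beside 9.93% of all core genes) and 1 was higher (9.09%, beside 8.18%). CIT3, a mitochondrial citrate synthase, ranged from 13.8 to 28.8 CPM against 36.5 to 119. MDH1 and CIT1, the mitochondrial malate dehydrogenase and the main citrate synthase, had gaps of 0.10 and 0.08, and PDB1, a subunit of pyruvate dehydrogenase, was higher, at 1419 to 1823 CPM against 997 to 1397. Among 14 mitochondrial carriers, SFC1, the succinate-fumarate carrier, had 0, 0, 1.17 and 0 CPM in the first pair and 3.39 to 20.7 in the second, TPC1, the thiamine pyrophosphate carrier, 14.4 to 22.0 against 45.3 to 65.4, and PET8, the S-adenosylmethionine carrier, was higher, with a gap of 0.01. CRC1, the carnitine carrier, had a difference of -3.59 without being separated, since S. mikatae on day 1 held 9.64 CPM and S. paradoxus 11.3. Protein import had 1 separated gene of 22, MAS2, with a gap of 0.10.

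**Figure D3:**
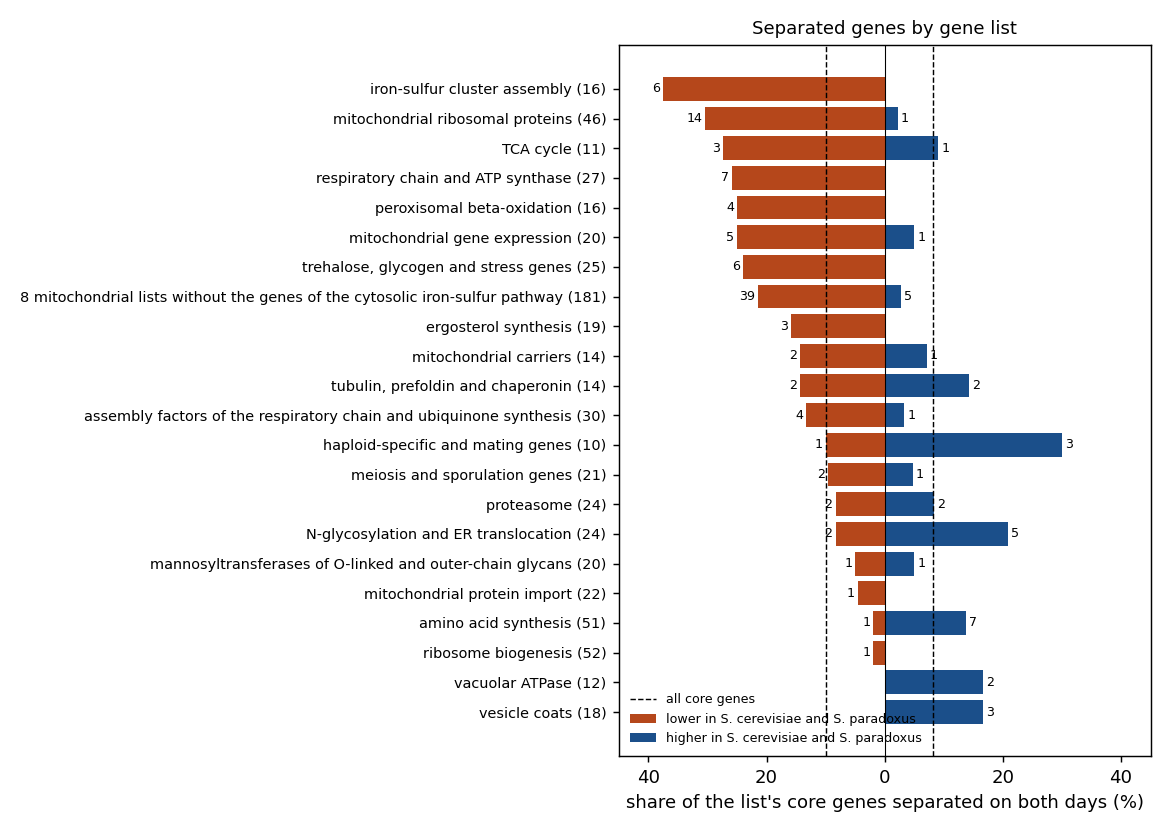
Share of the core genes of each of 21 lists that were separated on both days, lower (left) or higher (right) in S. cerevisiae and S. paradoxus. A further bar, not a list of its own, joins the 8 mitochondrial lists without the genes of the cytosolic iron-sulfur pathway (181 core genes). The number of genes stands at each bar and the number of core genes in parentheses. Dashed lines mark the shares among all core genes, 9.93% lower and 8.18% higher. Iron-sulfur cluster assembly (37.5%) and mitochondrial ribosomal proteins (30.4%) have the highest lower shares.

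Some genes of reserve carbohydrates and stress were separated in the same direction. Of 25 core genes, 6 were separated (24.0%, beside 9.93% of all core genes), all lower. The list median of -1.16 was the lowest of the 21 lists, with 21 genes below 0 and 4 above. SOL4, a 6-phosphogluconolactonase, ranged from 5.08 to 13.5 CPM in the first pair and from 25.3 to 67.4 in the second. TRX3, the mitochondrial thioredoxin, ranged from 15.3 to 30.3 against 68.5 to 105, and TRX2, a thioredoxin of the cytosol, from 185 to 482 against 814 to 1457. GSY1, a glycogen synthase, had 89.9 and 188 CPM for S. cerevisiae, 36.0 and 69.4 for S. paradoxus, 269 and 471 for S. mikatae and 112 and 260 for S. bayanus. The pairs of GSY1 overlapped across days and were apart only within each day. HSP12, a small heat shock protein used as a marker of stress and slowing growth, was not separated: it had 229 and 377 CPM for S. cerevisiae, 5.47 and 4.67 for S. paradoxus, 1.30 and 79.3 for S. mikatae and 1526 and 3068 for S. bayanus. Many genes of this list respond to growth stage, and the Methods state that all cultures were taken in exponential growth. Summed over the 25 genes, the level was 12874 and 24205 CPM for S. cerevisiae, 9236 and 11719 for S. paradoxus, 22190 and 33926 for S. mikatae and 19953 and 24035 for S. bayanus, and no gene of the list was at 0 in any library. Within each day the sum was lower in S. paradoxus than in both species of the second pair, and for S. cerevisiae on day 2 it lay just above S. bayanus. The part of these genes in the lower level of the mitochondrial and peroxisomal genes was not tested. In ergosterol synthesis, 3 of 19 core genes were lower (15.8%, beside 9.93% of all core genes) and none was higher. ERG27, the 3-keto sterol reductase, ranged from 83.3 to 147 CPM against 236 to 826, and ERG26, the C-3 sterol dehydrogenase, from 205 to 488 against 537 to 939.

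Among the 224 higher genes, LIH1, a putative lipase, had the widest gap, 1.79. It had 248 and 163 CPM for S. cerevisiae, 235 and 274 for S. paradoxus, 67.5 and 40.4 for S. mikatae and 3.51 and 3.53 for S. bayanus. The level thus stepped down from the first pair to S. mikatae and again to S. bayanus, and the second step had a log2 difference of -3.89 (SE 0.46, adjusted p = 0.00016, edgeR). RGL1, a regulator of Rho1 signalling, had 121 and 111 CPM for S. cerevisiae, 121 and 193 for S. paradoxus, 30.8 and 32.1 for S. mikatae and 19.1 and 9.88 for S. bayanus. SBH2, a subunit of the Ssh1 translocon of the endoplasmic reticulum, had 160 and 175 CPM for S. cerevisiae, 186 and 162 for S. paradoxus, 35.7 and 51 for S. mikatae and 11.7 and 26.5 for S. bayanus. Both species of the first pair lay close together in RGL1 and SBH2, and the log2 differences of S. paradoxus from S. cerevisiae, 0.45 (SE 0.41) and 0.08 (SE 0.38), did not pass the edgeR test.

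The other higher genes with wide gaps were of mixed function. GIT1, the permease of glycerophosphoinositol, ranged from 33.6 to 145 CPM in the first pair and from 3.13 to 17.6 in the second. APT2, a homolog of adenine phosphoribosyltransferase, had 91.4 and 179 CPM for S. cerevisiae, 262 and 304 for S. paradoxus, 25.5 and 35 for S. mikatae and 30.8 and 51.5 for S. bayanus. XPT1, the xanthine-guanine phosphoribosyltransferase, had 224 and 181 CPM for S. cerevisiae, 142 and 191 for S. paradoxus, 53.4 and 72.0 for S. mikatae and 12.9 and 13.8 for S. bayanus. XPT1 differed inside the second pair (log2 difference -2.22, SE 0.39, adjusted p = 0.0017, edgeR) and APT2 inside the first (1.14, adjusted p = 0.037). GAL83, a beta subunit of the Snf1 kinase that relieves glucose repression, ranged from 125 to 177 CPM against 23.3 to 56.6. CUS2, a splicing factor of the U2 particle, ranged from 7.68 to 43.4 against 2.12 to 6.63, YGK1, of the HD-domain family, from 28.1 to 49.0 against 3.90 to 12.8, and YOL036W, without a named function, from 408 to 728 against 84.3 to 156. YOL036W and STE3, described below, overlap another annotated gene of S. cerevisiae, and whether the counting used the strand is not given in the sources used here.

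Of the 21 lists, amino acid synthesis and N-glycosylation held the most higher genes by number, 7 and 5. These were 13.7% and 20.8% of their core genes, beside 8.18% of all core genes. By share, the list of haploid-specific and mating genes came first, with 30.0% of 10 core genes. In N-glycosylation and translocation into the endoplasmic reticulum, 5 of 24 core genes were higher (20.8%) and 2 were lower (8.33%), with a median of 0.36 that became 0.12 without S. bayanus on day 1 and 0.04 under total-count scaling. OST1, a subunit of the oligosaccharyltransferase, ranged from 1087 to 1977 CPM in the first pair and from 460 to 828 in the second. STT3, its catalytic subunit, ranged from 1593 to 3035 against 688 to 1387, and SSS1, a subunit of the Sec61 translocon, from 105 to 140 against 31.6 to 80.0. All libraries of the first pair lay above all of the second in these 3 genes. DPM1, the dolichol phosphate mannose synthase, had 797 and 477 CPM for S. cerevisiae, 820 and 1107 for S. paradoxus, 413 and 408 for S. mikatae and 37.1 and 131 for S. bayanus, so that the largest step lay between S. mikatae and S. bayanus (log2 difference -2.38, SE 0.52, adjusted p = 0.0051, edgeR). SPC1, of the signal peptidase, was lower, at 27.1 to 52.4 CPM against 78.4 to 126. Of 18 core genes of vesicle coats, 3 were higher (16.7%) and none was lower, 16 had a difference above 0, and the median of 0.59 was the highest of the lists with over 10 core genes. ERV14, a cargo receptor of COPII vesicles, ranged from 160 to 332 CPM against 76.1 to 139, while the gaps of COP1 and EMP24 were 0.21 and 0.08. The vacuolar ATPase had 2 higher genes of 12, VMA5 (925 to 1673 CPM against 424 to 608) and VMA3 (1130 to 1837 against 302 to 740).

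In amino acid synthesis, 7 of 51 core genes were higher (13.7%) and 1, STR2, was lower (1.96%), with a median of 0.20 that became -0.12 under total-count scaling, where the median of all genes was -0.34, and 0.07 or 0.50 without S. cerevisiae on day 1 or day 2. GCN4, the activator of these pathways under amino acid starvation, had 3116 and 2737 CPM for S. cerevisiae, 2076 and 2755 for S. paradoxus, 1710 and 1254 for S. mikatae and 932 and 1038 for S. bayanus. HOM2, the aspartate semialdehyde dehydrogenase, had 2433 and 2004 CPM for S. cerevisiae, 3397 and 4439 for S. paradoxus, 1249 and 930 for S. mikatae and 258 and 552 for S. bayanus. GCN4 and HOM2 had no overlap between the pairs. LYS9, of lysine synthesis, ranged from 1170 to 4390 CPM against 438 to 803, ARO8, an aromatic aminotransferase, from 1721 to 4473 against 657 to 1197, and AAT2, the cytosolic aspartate aminotransferase, from 1033 to 2286 against 173 to 876. The 2 remaining higher genes, ILV3 and ARO4, had gaps of 0.25 and 0.15. TGACTC, the core of the site that Gcn4 binds in S. cerevisiae, was found in 10.3% of the windows of the higher genes, 6.62% of those of the lower genes, 9.32% of those of the core genes and 8.04% of all 6020.

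Lists of other large machines held few separated genes or held them in both directions. Ribosome biogenesis had 1 separated gene of 52, DIM1, the dimethylase of ribosomal RNA, which was lower, and a median of -0.33, which became -0.54 without S. paradoxus on day 1 and 0.01 without it on day 2. Of 24 proteasome genes, RPN8 and RPN12 were higher (8.33%, beside 8.18% of all core genes) and RPN14 and RPT4 lower (8.33%, beside 9.93%). The list median was 0.47. RPN8, a subunit of the lid, had 123 and 145 CPM for S. cerevisiae, 77.4 and 31.4 for S. paradoxus, 22.2 and 27.3 for S. mikatae and 22.6 and 13.8 for S. bayanus. RPT4, an ATPase of the base, ranged from 143 to 224 CPM in the first pair and from 233 to 522 in the second. Both shares of the proteasome list were near those of all core genes, and nothing is read from them. TUB2, beta-tubulin, ranged from 1528 to 2691 CPM against 601 to 1122, CCT3, a chaperonin subunit, was higher with a gap of 0.14, and PAC2 and PAC10 were lower with gaps of 0.44 and 0.07. Among 20 mannosyltransferases, KTR4 was higher and MNN11 lower.

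**Figure D4:**
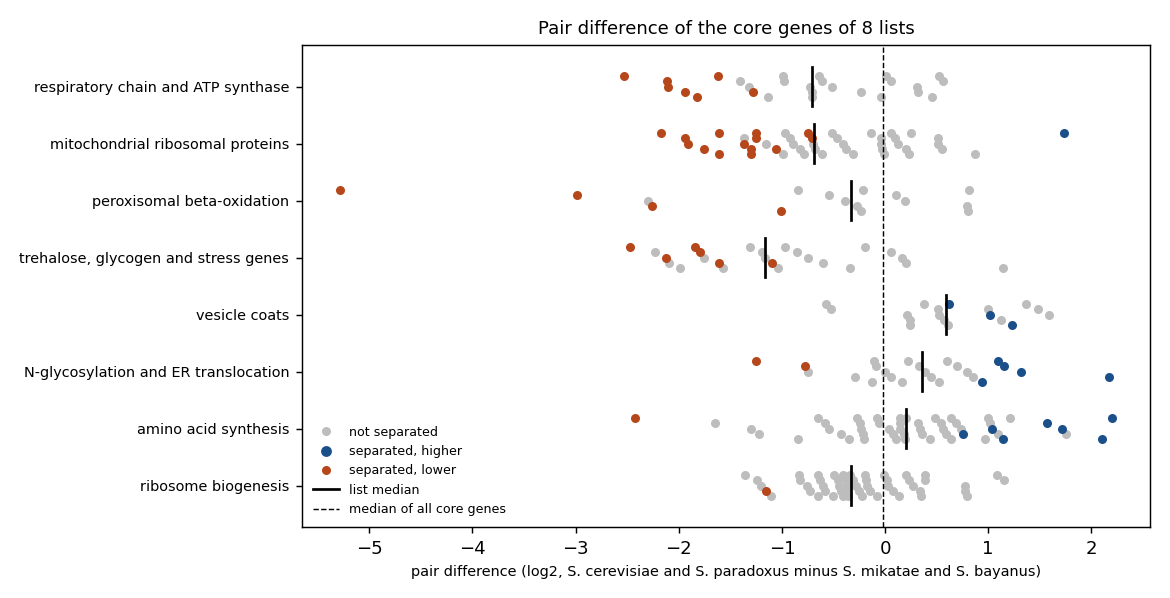
Log2 difference between the pairs for each core gene of 8 lists, as the mean of S. cerevisiae and S. paradoxus minus the mean of S. mikatae and S. bayanus. Blue points are separated and higher, brown points separated and lower, grey points not separated, black bars are list medians (from -1.16 to 0.59) and the dashed line is the median of all core genes, -0.02.

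Genes that mark the mating type were examined because all strains were diploid, a state in which S. cerevisiae represses haploid-specific genes. Of 10 core genes on this list, 3 were separated and higher (30.0%, beside 8.18% of all core genes) and 1 was lower (10.0%, beside 9.93%). STE3, the receptor of a-factor made by alpha cells, had 26.1 and 17.2 CPM for S. cerevisiae, 27.4 and 42.0 for S. paradoxus, 2.08 and 2.42 for S. mikatae and 7.80 and 3.88 for S. bayanus. RME1, a repressor of meiosis that diploids turn off, had 71.0 and 91.8 CPM for S. cerevisiae, 4.69 and 3.42 for S. paradoxus, 1.56 and 0.967 for S. mikatae and 2.34 and 0 for S. bayanus. RME1 was therefore high in S. cerevisiae alone. S. paradoxus was lower than S. cerevisiae (log2 difference -4.38, SE 0.68, adjusted p = 0.0015, edgeR), and its level lay above the 0 to 2.34 CPM of the second pair. AGA2, an agglutinin subunit of a cells, stayed at 2.06 CPM or less in every library, with 0 to 11 reads. FAR1, a cell cycle inhibitor of the pheromone response, was lower, with 2.04 and 1.31 CPM for S. cerevisiae, 13.3 and 14.3 for S. paradoxus, 30.2 and 32.1 for S. mikatae and 64.8 and 35.3 for S. bayanus. STE4, a G-protein subunit of the same pathway that diploids of S. cerevisiae also repress, was not separated but was highest in S. cerevisiae, at 34.7 and 41.6 CPM against 0.782 to 12.1 elsewhere. GPA1, STE5, FUS1, FUS3 and HO, also on the list and not separated, were not highest in S. cerevisiae on either day. GPA1 had 4.09 and 5.24 CPM for S. cerevisiae and 41.8 and 35.2 for S. paradoxus, and STE5 had 32.7 and 20.0 against 59.0 and 65.4. Summed over the 10 genes, the level was 175 to 211 CPM in the first pair and 93.8 to 218 in the second, so that the list as a whole overlapped between the pairs, and 2 of its genes were at 0 in each S. bayanus library. In bulk RNA, a few haploid cells in a culture and a low level in every cell cannot be told apart, and these counts do not settle the ploidy of the cultures. Of 21 core genes of meiosis and sporulation, ZIP2 and MSH4 were lower and HOP1 was higher, with at most 46.9 CPM in any library.

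Inside the pairs, the species of the separated genes were not always alike. Among the higher genes, S. cerevisiae lay above S. paradoxus on both days in 82 of 224 and below it on both days in 72, while in 70 the order changed with the day. Among the lower genes, S. mikatae lay above S. bayanus on both days in 78 of 272 and below it in 93, and in 101 the order changed. Between S. paradoxus and S. cerevisiae, 39 of the 491 separated genes tested by edgeR passed an adjusted p of 0.05 (7.94%), beside 19.3% of all 2707 genes tested. Between S. bayanus and S. mikatae, 77 passed (15.7%), beside 29.7% of all. The rule limits these differences, because a gene with species far apart inside a pair is less likely to have pairs apart, so nothing is read from the lower shares. Without either S. paradoxus library the count of 39 fell to 6 (day 1) or 2 (day 2), and without S. cerevisiae on day 2 to 14. The count of 77 fell to 42 without either S. paradoxus library, to 20 and 22 without S. mikatae on day 1 or day 2, and to 37 and 38 without S. bayanus.

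Some of these genes were set apart mostly by 1 species. YHB1, the flavohemoglobin, had 287 and 213 CPM for S. cerevisiae, 17.2 and 9.96 for S. paradoxus, 8.08 and 8.94 for S. mikatae and 2.73 and 3.18 for S. bayanus. It met the rule by a gap of 0.15, while S. paradoxus was lower than S. cerevisiae by a log2 difference of -4.21 (SE 0.44, adjusted p = 0.0001, edgeR). PEX18, a factor of peroxisomal import outside the lists, had 1.53 and 2.62 CPM for S. cerevisiae, 25.8 and 16.8 for S. paradoxus, 33.6 and 45.4 for S. mikatae and 73.4 and 46.2 for S. bayanus. Here S. paradoxus lay near the second pair and S. cerevisiae stood alone (log2 difference 3.19, SE 0.57, adjusted p = 0.0028, edgeR). MIC60, of the mitochondrial inner membrane organising complex, had 17.4 to 43.8 CPM in the first pair, 59.4 and 42.8 for S. mikatae and 421 and 176 for S. bayanus, and differed inside the second pair by 2.42 (SE 0.38, adjusted p = 0.00086, edgeR). These 3 genes were picked after their values were seen, for their difference inside a pair.

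Whether the difference between the pairs changed with the day was tested as a pair by day interaction. No separated gene passed that test with edgeR, beside 0.0% of all 2707 genes tested. In the same test 9 of 491 separated genes (1.83%) and 92 of all (3.4%) had an unadjusted p under 0.05. The rule asks for the same direction on both days and so limits this interaction, and nothing is read from the lower share. DESeq2 called 2 genes in the interaction, none of them separated. For the day itself, 1 of 491 separated genes passed with edgeR (0.204%), beside 0.369% of all genes. An unadjusted p under 0.05 in that test was found for 101 separated genes (20.6%) and for 585 of all (21.6%). The gene that passed was IMG1, a mitochondrial ribosomal protein, which was higher on day 2 (log2 difference 1.71, SE 0.34, adjusted p = 0.049, edgeR). IMG1 had 15.3 and 58.4 CPM for S. cerevisiae on days 1 and 2, 3.91 and 17.7 for S. paradoxus, 21.9 and 95.0 for S. mikatae and 41.7 and 71.6 for S. bayanus, so that it was higher on day 2 in every species and the pairs stayed apart within each day. DESeq2 called 36 separated genes for the day. Its share over all genes is not given here, so nothing is read from this count.

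**Figure D5:**
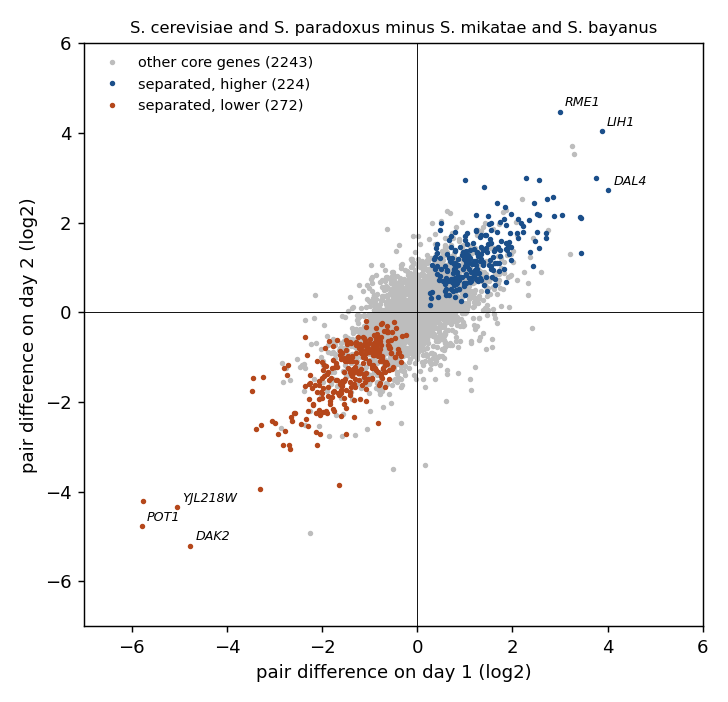
Log2 difference between the pairs on day 1 (horizontal) and day 2 (vertical) for the 2739 core genes. Blue points are the 224 separated higher genes, brown points the 272 separated lower genes and grey points the other 2243. By the rule, separated genes lie in the quadrants where both days have the same sign, and POT1, YJL218W and DAK2 lie farthest down.

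How far the rule repeats between cultures was read by choosing genes on 1 day and reading them on the other. Of 450 genes higher by the rule on day 1, 224 were again higher on day 2 (49.8%) and 9 were lower, beside 16.4% of all core genes higher on day 2. Of 559 genes lower on day 1, 272 were again lower on day 2 (48.7%) and 13 were higher, beside 15.8% of all. Read the other way, 49.8% of the 450 genes higher on day 2 were higher on day 1, beside 16.4% of all, and 62.7% of the 434 lower on day 2 were lower on day 1, beside 20.4%. Both days used the same 4 strains, so the values show how cultures repeat and not how other strains of these species would behave.

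Most separated genes had narrow gaps. The median gap was 1.21-fold for the higher genes and 1.30-fold for the lower genes, and 24 higher and 37 lower genes had a gap of at least 2-fold. The median difference between the pairs was 1.16 and -1.27 on the log2 scale, and 29 higher and 41 lower genes had differences of at least 4-fold. Just inside the rule stood COG4, YLR326W and CST6, with gaps of 0.0014, 0.0018 and 0.0023, and just outside it stood GAT3, TGL2 and PEX22, at 0 or -0.0018. COG4, a subunit of a Golgi tethering complex, had 141 CPM in S. cerevisiae and 141 in S. bayanus on day 2, which shows how small the step at the edge was.

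The edgeR fit with terms for species and day called 385 of 2707 genes higher in the pair contrast (14.2%) and 437 lower (16.1%). Without S. paradoxus on day 1 or day 2 these counts fell to 189 and 203 or to 165 and 212, and without S. mikatae on day 1 or day 2 to 237 and 291 or to 212 and 294. Of the separated genes, 189 higher and 219 lower were among those called with all 8 libraries. The contrast is the one that chose the genes, and its error is the spread between cultures of the same species, so the overlap is no support for the choice. When the pair replaced the species in the model, so that the spread between the species of a pair entered the error, 2 genes were called higher (0.0739%) and 5 lower (0.185%). That model takes the 4 libraries of a pair as replicates, which they are not, and like the counts by species it concerns the difference that chose the genes, so these calls are a description and no test of them. Genes that passed in each of the 4 contrasts between a species of one pair and a species of the other were 26 higher and 45 lower, and the same holds for them.

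Other properties of the separated genes are given as descriptions. The rule used neither length, sequence nor position, whereas the mean level and the spread between cultures come from the same CPM values that chose the genes. The coding length in S. cerevisiae had a median of 1294.5 bases in the higher genes, 1087.5 in the lower and 1197 in all core genes, and 45.6% of the lower genes were shorter than 1000 bases, beside 39.0% of all. The mean level per kilobase of length had a median of 132 CPM in the higher genes, 66.7 in the lower and 74.6 in all. The median spread between cultures was 0.43, 0.42 and 0.47 on the log2 scale (SD), and a rule that asks for separation on both days itself favours a small spread. A set of 8 motifs was searched on both strands, and none of them contains another. GATGAG was in 12.5% of the windows of the higher genes, 21.0% of those of the lower genes, 19.5% of those of 2735 core genes and 19.8% of all 6020. In the same order, AAAAATTT was in 20.5%, 12.1%, 16.8% and 15.6%, and TATAAA in 46.9%, 44.9%, 46.9% and 47.6%. AGGGG, the stress response element, was in 23.7%, 29.4%, 23.9% and 22.9%, GATAAG in 13.4%, 17.3%, 14.1% and 14.3%, and CACGTG in 4.02%, 2.94%, 3.95% and 4.02%. Separated genes made up 10.9% of the core genes of chromosome I, the lowest share, and 25.1% of those of chromosome VII, the highest. Of 1385 neighbouring pairs of core genes, 23 were both separated in the same direction, 7 of them higher and 16 lower, and 20 in opposite directions.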

How the data were processed

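Each library's SOLiD reads were aligned by the authors to that species' own genome (MOSAIK, and build sacCer2 for S. cerevisiae), who deposited counts of uniquely aligned reads and of all aligned reads per annotated gene, without normalization. Counts of uniquely aligned reads were used, with all aligned reads as an alternative. The deposited tables pair IDs with positions only. Symbols, synonyms and upstream sequence were taken from RefSeq build R64 by locus name, which matched 2736 of the 2739 core genes, and no coordinates were converted between builds.

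Genes with at least 10 reads in at least 2 libraries (2707) were fitted with edgeR 4.0.16 (quasi-likelihood, TMM) with terms for species and day, on all 8 libraries, with Benjamini-Hochberg adjustment over all of them and a threshold of 0.05. The day entered as a block because the read-me of the deposit and the supplement state that replicate 1 and replicate 2 were prepared on different days, and changes from day 1 to day 2 correlated between every 2 species, from 0.166 to 0.489 across genes. The 2 cultures of a species are separate cultures. The p-values rest on the spread between cultures of the same strain that is left after the day shift shared by the species. That spread was estimated over all 4 strains together and does not include the spread between strains of a species. Software also included pandas 2.3.3, NumPy 2.4.6, Python 3.11.15, R 4.3.3 and DESeq2 1.42.0. The fit was also run on simulated counts in which neither the species of a pair nor the days differed. That run therefore does not check the fit under such differences. SE is the log2 difference divided by the square root of the F statistic.

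The separated genes, the 21 lists and the alternatives were chosen with earlier results of these data known. Named genes are the 12 with the widest gap in each direction among those with at least 30 reads in every library of the higher pair, the 3 narrowest inside the rule and the 3 nearest outside, and up to 6 separated genes per list by gap. Genes named outside this rule, such as the core genes of a list that were not separated, were picked once their values had been seen. The lists are those named in the text, and 1 listed name was not matched.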

Additional observations from a re-analysis of the deposited data

How the results depend on the processing

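Scaling by the total count of the core genes, in place of TMM, shifted the median of all core genes by -0.32 on the log2 scale and left 110 higher and 446 lower separated genes. All 110 were among the 224, and the lower genes included all 272. Under that scaling the log2 differences of XPT1 and MDH3 were 2.32 and -2.58, and the list medians moved with the shift, so that those of amino acid synthesis (-0.12) and the mannosyltransferases (-0.20) fell below 0 but stayed above the shifted median of -0.34. Requiring a gap of at least 2-fold on both days left 24 higher and 37 lower genes. The rule applied to a single day gave 450 higher genes on either day, and 434 lower genes without replicate 1 and 559 without replicate 2. Leaving out 1 library gave 287 to 317 higher and 302 to 386 lower genes.

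In the pair contrast, without the replicate block, which leaves the day out of the model, edgeR called 227 genes higher and 276 lower, 15 separated genes between S. paradoxus and S. cerevisiae and 31 between S. bayanus and S. mikatae. With terms for pair and day it called 2 higher and 5 lower, and in each of the 4 cross-pair contrasts 26 and 45. Leaving out 1 library gave 165 to 312 genes higher and 203 to 365 lower, the fewest without an S. paradoxus library. It gave 2 to 49 separated genes between S. paradoxus and S. cerevisiae, 20 to 85 between S. bayanus and S. mikatae and 0 to 2 for the day. A species left with 1 library was assumed to vary like the others. DESeq2 called 60 separated genes between S. paradoxus and S. cerevisiae and 36 for the day. These DESeq2 counts stand without the share over all genes, so nothing is read from them. In the other alternatives the counts stayed within 1.5 times. None of the 24 genes with the widest gaps changed direction, and the other named genes were not part of this check. Of 312 recomputed differences of the 24 genes with the widest gaps, 310 moved by less than the spread between cultures. Leaving out core genes that overlap another gene, an alternative chosen after seeing the data, left 200 higher and 251 lower genes. Genes with few reads are limited by depth, since 206 of the higher and 241 of the lower genes had at least 10 reads in every library.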
